A study of Homo sapiens with 9 samples.

Results

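Glycolysis turns glucose into pyruvate and lactate, and many of its enzymes belong to the genes that low oxygen induces through hypoxia-inducible factor (HIF). The genes described here are 41 such genes: enzymes of glycolysis, lactate and pyruvate use, and classical hypoxia-inducible genes. They were chosen by name from a fixed list. A gene counted as measured where a probe set of the deposited table was annotated to that gene and no other, and 33 of the 41 were. Of the other 8, PDK2 and EGLN1 stood only on probe sets naming several genes, and GAPDH, PGAM1, SLC16A1, SLC16A3, CA9 and ANKRD37 were not analysed here. P4HA2 alone had more than 1 such probe set, and the one with the higher mean over the 9 arrays was used. PFKM, ALDOA, ENO1 and PDHA1 also stood on probe sets naming several genes, which were not used. The whole table held 17859 probe sets, of which 14413 named 1 gene.

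All cells were SKOV3, an established human ovarian tumour line grown for 3 days in McCoy's 5A medium with fetal bovine serum. One group received 50 µM peracetylated 4-deoxy-GlcNAc (Ac-4-deoxy-GlcNAc), a second 50 µM peracetylated GlcNAc (Ac-GlcNAc), and the third was left untreated. GlcNAc is N-acetylglucosamine, an amino sugar; the 4-deoxy compound lacks its hydroxyl group at carbon 4, and acetyl groups help such sugars to enter cells. Each group had 3 arrays from separate flasks. No vehicle control is named in the labels.

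HIF is a dimer of an alpha subunit (HIF1A or EPAS1) and ARNT. With oxygen present, the prolyl hydroxylases EGLN1, EGLN2 and EGLN3 mark the alpha subunit for VHL, and it is degraded, so HIF activity is set largely at the protein level, which arrays do not measure. When it is stable, HIF binds a short core motif and raises glucose transporters, glycolytic enzymes and PDK1, a kinase that inhibits pyruvate dehydrogenase and so keeps pyruvate out of the citric acid cycle. Tumour cells commonly run glycolysis at a high rate with oxygen present.

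The HIF core motif was looked for as ACGTG or GCGTG, on both strands, in the 250 bases before each transcription start that RefSeq lists (build GRCh38.p14). An ACGTG inside CACGTG is also the core of an E-box, which other factors bind. Of 30 measured genes with a start listed, 25 (83.3%) held a match in at least 1 window, against 47.4% of all 27305 genes. These genes often have several starts. By window the match stood in 32 of 53 (60.4%), against 43.2% of all 35116 windows. Among the other pathway genes described further below, 47 of 61 (77%) held a match. Both lists include known HIF targets, the sets were not matched for base composition, and the cause of the higher shares was not tested. The windows below are shown because they belong to genes with an adjusted p under 0.1 in a comparison (PFKFB4, ADM, DLAT, EGLN3, BNIP3; NDRG1 is another such gene, not shown) or to textbook HIF targets that were not called (LDHA, PGK1). They run 5′ to 3′ and end at the base before the start; capitals mark the motif on either strand.
PFKFB4, chr3:48556804-48557053, minus strand: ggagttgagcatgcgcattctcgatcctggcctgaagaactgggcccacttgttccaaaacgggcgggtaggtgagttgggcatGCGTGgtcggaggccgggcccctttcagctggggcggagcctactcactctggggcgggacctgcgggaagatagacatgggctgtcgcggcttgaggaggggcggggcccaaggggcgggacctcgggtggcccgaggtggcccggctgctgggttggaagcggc
ADM, chr11:10304823-10305072, plus strand: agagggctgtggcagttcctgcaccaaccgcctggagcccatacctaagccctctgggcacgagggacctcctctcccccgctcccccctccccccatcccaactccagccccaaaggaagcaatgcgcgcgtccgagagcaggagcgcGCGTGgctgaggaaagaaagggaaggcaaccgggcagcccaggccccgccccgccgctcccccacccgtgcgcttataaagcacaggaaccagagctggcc
DLAT, chr11:112025158-112025407, plus strand: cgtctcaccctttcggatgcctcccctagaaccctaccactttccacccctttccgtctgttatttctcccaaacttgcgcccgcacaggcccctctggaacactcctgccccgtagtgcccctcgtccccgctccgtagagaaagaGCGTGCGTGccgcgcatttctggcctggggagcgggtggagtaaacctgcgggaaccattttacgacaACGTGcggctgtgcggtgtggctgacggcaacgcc
EGLN3, chr14:33951075-33951324, minus strand: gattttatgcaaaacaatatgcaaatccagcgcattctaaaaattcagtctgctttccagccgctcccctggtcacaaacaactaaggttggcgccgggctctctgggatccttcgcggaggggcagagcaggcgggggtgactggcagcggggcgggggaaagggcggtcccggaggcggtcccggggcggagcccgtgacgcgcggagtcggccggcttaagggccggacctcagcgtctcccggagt
BNIP3, chr10:131981924-131982173, minus strand: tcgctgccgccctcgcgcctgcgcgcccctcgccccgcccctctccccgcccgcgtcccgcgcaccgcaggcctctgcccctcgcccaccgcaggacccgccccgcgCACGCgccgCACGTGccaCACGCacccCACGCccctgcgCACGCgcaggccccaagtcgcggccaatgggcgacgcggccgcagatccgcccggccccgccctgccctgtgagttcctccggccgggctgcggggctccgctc
LDHA, chr11:18394313-18394562, plus strand: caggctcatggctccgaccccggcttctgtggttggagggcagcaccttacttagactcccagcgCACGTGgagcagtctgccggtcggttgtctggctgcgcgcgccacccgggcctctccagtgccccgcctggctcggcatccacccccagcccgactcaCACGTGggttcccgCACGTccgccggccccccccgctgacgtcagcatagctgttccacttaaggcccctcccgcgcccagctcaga
PGK1, chrX:78103998-78104247, plus strand: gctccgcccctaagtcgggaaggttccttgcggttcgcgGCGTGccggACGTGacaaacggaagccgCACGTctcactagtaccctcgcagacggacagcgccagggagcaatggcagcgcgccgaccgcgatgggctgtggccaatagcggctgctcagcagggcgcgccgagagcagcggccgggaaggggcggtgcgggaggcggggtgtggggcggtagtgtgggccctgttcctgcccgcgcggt
In the windows shown, counting both strands, BNIP3 held 6 matches, LDHA 5, DLAT and PGK1 3 each, and PFKFB4 and ADM 1 each. The EGLN3 window held none, nor did the single window listed for LDHB. A match is a string of letters, and binding was not measured.

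Array medians lay between 6.58 and 6.65 on the log2 scale, and the SD over probe sets was 2.07 to 2.17 with Ac-4-deoxy-GlcNAc, 2.14 to 2.18 with Ac-GlcNAc and 1.92 to 2.08 in untreated cells. Untreated replicate 2 had the narrowest spread. The tumour markers ERBB2, amplified in this line, and PAX8 had lowest values of 12.18 and 10.61 over the 9 arrays. Markers of leukocytes (PTPRC, CD3E, CD14, LYZ), endothelium (PECAM1, VWF, CDH5) and muscle (DES, ACTG2, MYH11) lay between 3.79 and 5.95 on every array, below the median of all probe sets (6.63), and some of them, such as PECAM1 at 5.24 to 5.75, above the lower quartile (4.89). CD68, a lysosomal macrophage marker, lay at 8.89 to 9.55. Fewer cells of a type and less RNA per cell cannot be told apart in such bulk samples. Of the 33 measured genes, 20 had a mean above the upper quartile of all probe sets (8.46).

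None of the 33 genes changed at an adjusted p under 0.05 in any comparison (limma, Benjamini-Hochberg over all 17859 probe sets). Against untreated cells, 11.0% of all probe sets were called with Ac-4-deoxy-GlcNAc and 0.442% with Ac-GlcNAc; between the compounds 2.38% were. Over the 3 groups at once (moderated F), 8.36% were called and again 0 of 33. At an unadjusted p under 0.05, 7 of 33 genes passed with Ac-4-deoxy-GlcNAc (31.2% of all probe sets), 7 with Ac-GlcNAc (26.4%), and 4 between the compounds (13.6%). The smallest adjusted p of any gene in these comparisons was 0.0594, for PFKFB4 with Ac-4-deoxy-GlcNAc, and the largest of the 99 differences was 0.46 on the log2 scale. For 29 of the 33 genes all 3 95% intervals lay inside a 1.5-fold change in either direction. The exceptions were TPI1, PFKM, DLAT and ADM, and no interval reached 2-fold. Other settings called up to 5 of the genes in a comparison, named beside their values, and up to 6 over the 3 groups. The 5 were called with Ac-GlcNAc under array weights, where 9.85% of all probe sets were called.

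**Figure D1:**
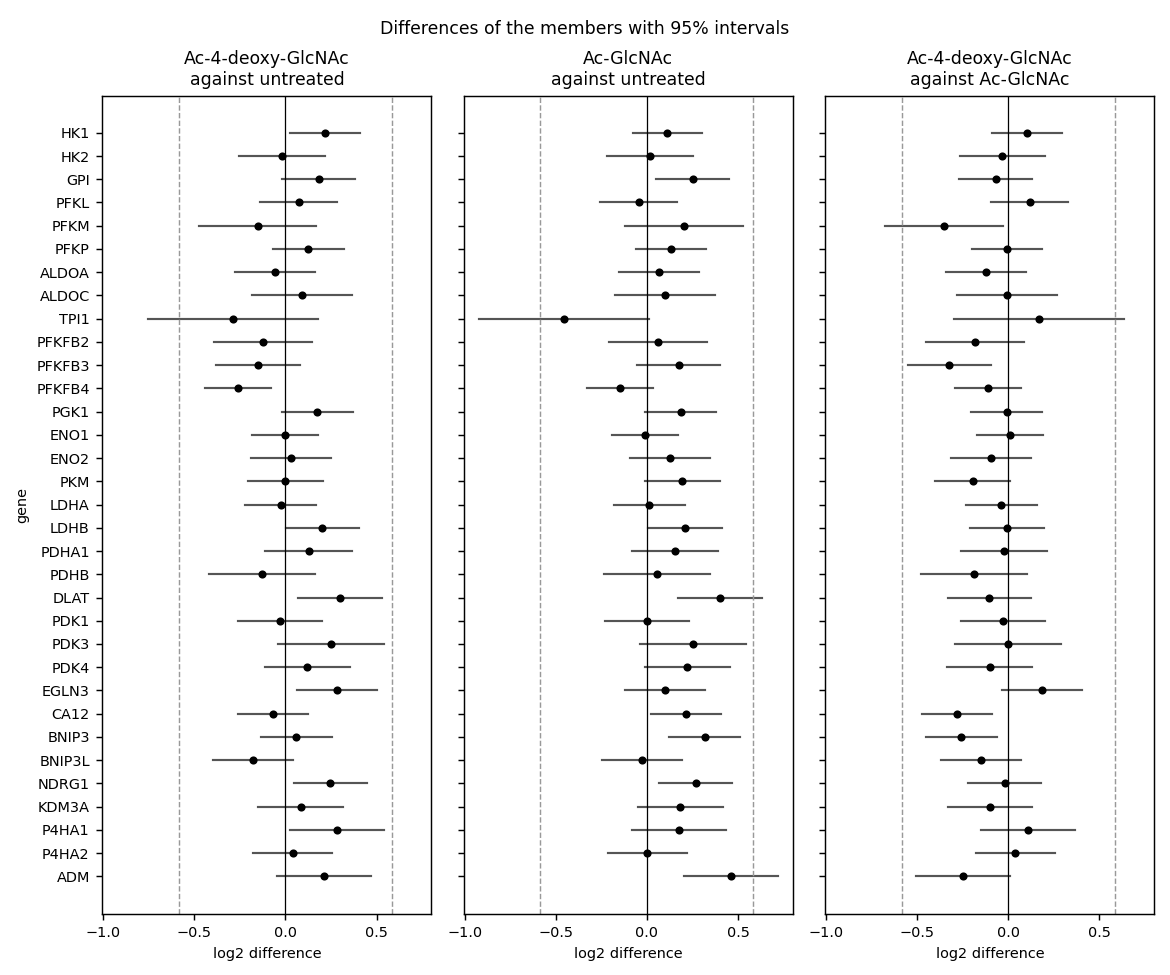
Log2 differences (x axis) of the 33 measured genes (y axis) in the 3 comparisons, as points with 95% intervals from limma, n = 3 arrays per group. Dashed lines mark a 1.5-fold change. All points lie within 0.46 of 0, and with Ac-GlcNAc against untreated 28 of 33 lie to the right of 0.

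The arrays of Ac-4-deoxy-GlcNAc and untreated cells did not overlap for 11 of the 33 genes, 9 higher and 2 lower, against 32.1% of all probe sets (13.0% higher, 19.1% lower). With Ac-GlcNAc they did not overlap for 11 genes, 10 higher and 1 lower, against 32.3% of all (13.0% higher, 19.3% lower). Between the compounds the count was 7, with Ac-4-deoxy-GlcNAc higher for 1 and lower for 6, against 21.2% of all probe sets (9.56% higher, 11.6% lower). The comparisons with untreated cells share the same 3 untreated arrays. These shares were not matched for level, and the direction of all probe sets depended on level, as described next.

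Taken as a list, the genes had a median log2 difference of 0.13 with Ac-GlcNAc, where all probe sets had -0.02, and 28 of 33 differences were positive against 47.3% of all. The shift of all probe sets depended on level: above the 50th percentile, where 29 of the 33 genes lay, their median was 0.10 with 75.4% positive, against 0.15 and 26 of 29 for the genes. The median of the genes with Ac-GlcNAc was 0.05 with 21 positive after cyclic loess and 0.04 with 21 after quantile normalization. It was -0.0036 with 16 positive when the SD of each array was a covariate. That SD was 2.14 to 2.18 with Ac-GlcNAc and 1.92 to 2.08 in untreated cells, so the covariate and this treatment cannot be told apart. The highest adjusted p of the ranges given below for Ac-GlcNAc against untreated cells was reached with that covariate. With Ac-4-deoxy-GlcNAc the median was 0.06 (all probe sets -0.05) with 19 positive against 41.9% of all. Above the 50th percentile of level it was 0.06 with 17 of 29 positive, against 0.05 and 60% for all probe sets there. It was 0.0012 after cyclic loess and -0.0005 after quantile normalization. Between the compounds it was -0.04 (all probe sets 0.0031) with 7 positive, -0.04 above the 50th percentile of level (all probe sets there -0.05), and 0.0008 with 17 positive after quantile normalization. Without untreated replicate 2, the array with the narrowest spread, the medians were 0.03 with Ac-4-deoxy-GlcNAc and 0.07 with Ac-GlcNAc against untreated cells.

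**Figure D2:**
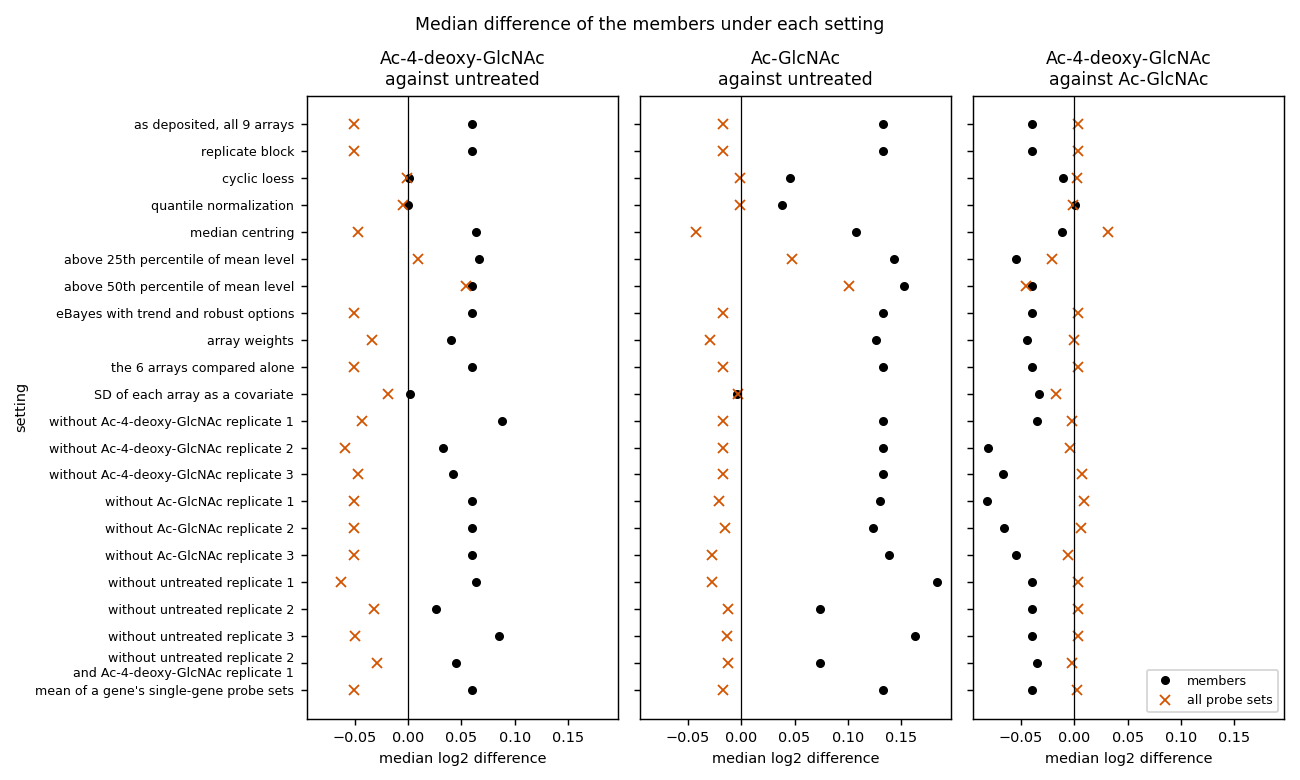
Median log2 difference (x axis) of the measured genes (black points) and of all probe sets (orange crosses) under each setting (y axis), in the 3 comparisons. Under cyclic loess and quantile normalization the points lie near the crosses with Ac-4-deoxy-GlcNAc against untreated, at 0.0012 and -0.0005. With Ac-GlcNAc against untreated they stay to the right of them, at 0.0455 and 0.0379, with the quantile normalization cross at -0.0011.

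**Figure D3:**
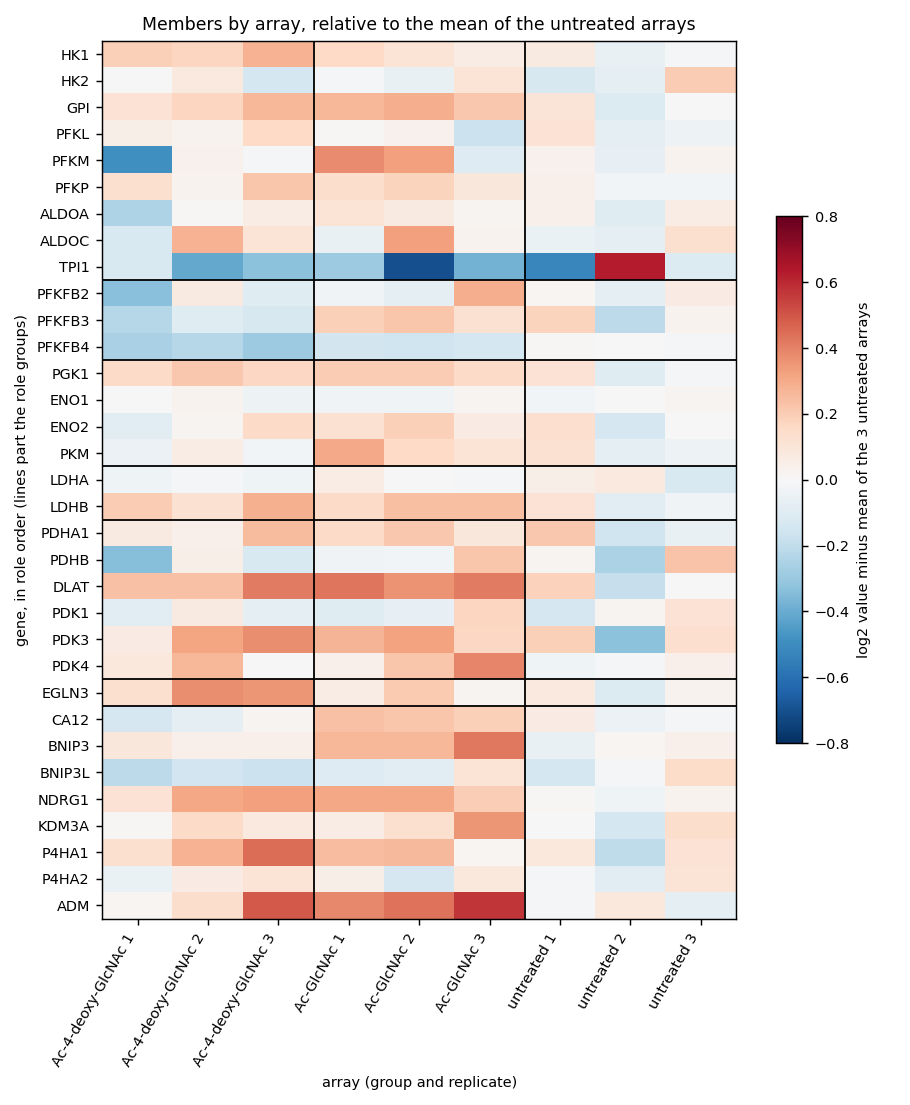
Log2 value minus the mean of the 3 untreated arrays (colour) for each of the 33 genes (rows, parted by role) on each of the 9 arrays (columns). Untreated replicate 2 is below the other untreated arrays for many genes and above them for TPI1, at 5.42.

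Among the enzymes of upper glycolysis, which splits glucose into triose phosphates, 9 genes were measured and 0 were called. The hexokinases trap glucose as glucose 6-phosphate. HK2, the isoform raised in many tumours, differed by -0.02 (95% interval -0.25 to 0.22) with Ac-4-deoxy-GlcNAc, by 0.02 (-0.22 to 0.25) with Ac-GlcNAc, and by -0.03 (-0.27 to 0.20) between the compounds. HK1, the widely expressed isoform, had log2 values of 8.32, 8.30 and 8.41 with Ac-4-deoxy-GlcNAc, 8.29, 8.24 and 8.19 with Ac-GlcNAc, and 8.20, 8.07 and 8.12 in untreated cells. The Ac-4-deoxy-GlcNAc arrays lay above all others, yet the difference of 0.22 from untreated cells (SE 0.09) had an adjusted p of 0.12, and it was 0.11 with Ac-GlcNAc.

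GPI, which makes fructose 6-phosphate, differed from untreated cells by 0.18 (-0.02 to 0.38) with Ac-4-deoxy-GlcNAc and by 0.25 (0.05 to 0.45) with Ac-GlcNAc. With Ac-GlcNAc the GPI difference had an adjusted p of 0.126, against 0.0441 with array weights, the lowest of 21 alternatives that ran up to 1. The 3 phosphofructokinase genes encode the enzyme at the committed step. PFKM, the muscle form, read 6.53, 7.06 and 7.01 with Ac-4-deoxy-GlcNAc, 7.40, 7.35 and 6.92 with Ac-GlcNAc, and 7.06, 6.96 and 7.05 in untreated cells. Its spread within each compound was wide, and Ac-4-deoxy-GlcNAc replicate 1 and Ac-GlcNAc replicate 3 lay lowest in their groups. PFKM showed the largest difference between the compounds, -0.36 (-0.68 to -0.03, adjusted p = 0.304), but PFKM fell short of that rank when Ac-4-deoxy-GlcNAc replicate 1 was left out, at -0.18 (adjusted p = 0.893) beside -0.29 for PFKFB3 and -0.24 for CA12. PFKL, the liver form, and PFKP, the platelet form, differed by -0.04 to 0.13 in the comparisons with untreated cells. PFKL and PFKP differed by 0.12 and -0.01 between the compounds.

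The aldolases ALDOA and ALDOC split fructose 1,6-bisphosphate; ALDOA differed by -0.06 with Ac-4-deoxy-GlcNAc and 0.07 with Ac-GlcNAc against untreated cells, and ALDOC by 0.09 and 0.10. TPI1 interconverts the products of that split. Its log2 values were 4.67, 4.38 and 4.46 with Ac-4-deoxy-GlcNAc, 4.50, 4.09 and 4.41 with Ac-GlcNAc, and 4.27, 5.42 and 4.68 in untreated cells. This probe set had the only mean among the 33 genes below the lower quartile of all probe sets, 4.54, and untreated replicate 2 stood above all other arrays. TPI1 differed by -0.29 (-0.75 to 0.18) with Ac-4-deoxy-GlcNAc and by -0.46 (-0.92 to 0.01) with Ac-GlcNAc; neither was called, but without untreated replicate 1 the second was, at -0.72 (adjusted p = 0.0452, and up to 1 over the 19 alternatives that kept TPI1). Without untreated replicate 2 the TPI1 differences were 0.03 with Ac-4-deoxy-GlcNAc and -0.14 with Ac-GlcNAc.

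The PFKFB genes encode enzymes that make and break fructose 2,6-bisphosphate, the strongest activator of phosphofructokinase. PFKFB3, whose enzyme mostly makes it, had log2 values of 8.61, 8.74 and 8.71 with Ac-4-deoxy-GlcNAc, 9.03, 9.06 and 8.96 with Ac-GlcNAc, and 9.02, 8.63 and 8.87 in untreated cells. All Ac-GlcNAc arrays lay above all Ac-4-deoxy-GlcNAc arrays, and untreated cells spanned most of that range. Between the compounds PFKFB3 differed by -0.33 (-0.55 to -0.10, adjusted p = 0.145), and with array weights by -0.33 (adjusted p = 0.017), the smallest adjusted p of its 21 alternatives, which ran up to 0.457.

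PFKFB4, a hypoxia-inducible isoform, read 5.30, 5.33 and 5.27 with Ac-4-deoxy-GlcNAc, 5.41, 5.40 and 5.42 with Ac-GlcNAc, and 5.57, 5.56 and 5.55 in untreated cells. The 3 groups did not overlap, with untreated cells highest and Ac-4-deoxy-GlcNAc lowest, and the SD within each group was 0.01 to 0.03. It differed by -0.26 (SE 0.08, adjusted p = 0.0594) with Ac-4-deoxy-GlcNAc and by -0.15 (adjusted p = 0.262) with Ac-GlcNAc. The SE is larger than those SDs because limma draws the spread of each probe set toward that of all probe sets. The level was low, between the lower quartile and the median of all probe sets. PFKFB4 was called lower with Ac-4-deoxy-GlcNAc only when probe sets under the 25th percentile of level were left out (adjusted p = 0.0476), and over its 20 alternatives the adjusted p ran up to 0.186. PFKFB2, the isoform known from heart, differed by -0.12 with Ac-4-deoxy-GlcNAc and by 0.06 with Ac-GlcNAc, and by -0.18 (-0.45 to 0.09) between the compounds.

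Of lower glycolysis, where ATP and pyruvate are made, 4 genes were measured and 0 called. PGK1, the first enzyme of the pathway to yield ATP, had log2 values of 13.18, 13.24 and 13.19 with Ac-4-deoxy-GlcNAc, 13.23, 13.23 and 13.18 with Ac-GlcNAc, and 13.14, 12.93 and 13.01 in untreated cells. Both compounds lay above untreated cells without overlap, by 0.18 (-0.02 to 0.37, adjusted p = 0.199) with Ac-4-deoxy-GlcNAc and 0.19 (-0.01 to 0.38, adjusted p = 0.207) with Ac-GlcNAc. Between the compounds PGK1 differed by -0.01 (-0.21 to 0.18).

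PKM, pyruvate kinase, read 11.53, 11.64 and 11.56 with Ac-4-deoxy-GlcNAc, 11.88, 11.74 and 11.69 with Ac-GlcNAc, and 11.70, 11.50 and 11.54 in untreated cells. The Ac-GlcNAc arrays lay above the Ac-4-deoxy-GlcNAc arrays, with a difference of -0.20 between the compounds (-0.40 to 0.01, adjusted p = 0.409). ENO1, the main enolase, differed by at most 0.01 in size in any comparison, with intervals inside -0.19 to 0.19; its symbol also stands on 2 probe sets naming several genes. ENO2, the neuronal enolase and a HIF target, differed by 0.03 with Ac-4-deoxy-GlcNAc and by 0.13 with Ac-GlcNAc against untreated cells, and by -0.10 between the compounds.

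Lactate dehydrogenase turns pyruvate into lactate. LDHA is its hypoxia-inducible subunit, and the LDHA window shown above holds CACGTG. Of the 3 windows listed for LDHA and LDHB, 1 held ACGTG. LDHA had log2 values of 13.24, 13.26 and 13.24 with Ac-4-deoxy-GlcNAc, 13.33, 13.27 and 13.26 with Ac-GlcNAc, and 13.32, 13.35 and 13.15 in untreated cells. The groups overlapped, and the differences were -0.03 (-0.22 to 0.17) with Ac-4-deoxy-GlcNAc, 0.01 (-0.18 to 0.21) with Ac-GlcNAc and -0.04 (-0.23 to 0.15) between the compounds. LDHB, the heart-type subunit, read 10.38, 10.30 and 10.46 with Ac-4-deoxy-GlcNAc, 10.33, 10.42 and 10.42 with Ac-GlcNAc, and 10.29, 10.09 and 10.15 in untreated cells. The arrays of both compounds lay above the untreated ones, by 0.20 (adjusted p = 0.159) with Ac-4-deoxy-GlcNAc and by 0.21 (adjusted p = 0.177) with Ac-GlcNAc, and LDHB was called in 0 of the 21 alternatives of either comparison.

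The pyruvate dehydrogenase complex feeds pyruvate into the citric acid cycle, and PDK enzymes switch it off. DLAT, its acetyltransferase core, had log2 values of 9.10, 9.10 and 9.28 with Ac-4-deoxy-GlcNAc, 9.29, 9.22 and 9.28 with Ac-GlcNAc, and 9.05, 8.68 and 8.86 in untreated cells. Every array of both compounds was above every untreated array. DLAT differed by 0.30 (SE 0.11, adjusted p = 0.0848) with Ac-4-deoxy-GlcNAc, and by 0.40 (SE 0.11, adjusted p = 0.0887), or 1.32-fold, with Ac-GlcNAc. The calls depended on which untreated arrays were kept: without untreated replicate 1, DLAT was called in both comparisons, at 0.39 (adjusted p = 0.0306) and 0.49 (adjusted p = 0.0321), while without untreated replicate 2 it differed by 0.21 (adjusted p = 0.243) and 0.31 (adjusted p = 0.267). It was also called with Ac-GlcNAc under array weights (adjusted p = 0.0209). Over 21 alternatives the adjusted p of DLAT ran from 0.0306 to 0.48 with Ac-4-deoxy-GlcNAc and from 0.0209 to 1 with Ac-GlcNAc.

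The subunits PDHA1 and PDHB differed by 0.13 and -0.13 with Ac-4-deoxy-GlcNAc, and by 0.15 and 0.06 with Ac-GlcNAc. PDK1, the kinase that HIF induces, differed by -0.03 (-0.26 to 0.20) with Ac-4-deoxy-GlcNAc, by 0.0019 (-0.23 to 0.23) with Ac-GlcNAc, and by -0.03 between the compounds. PDK3 read 8.14, 8.39 and 8.45 with Ac-4-deoxy-GlcNAc, 8.35, 8.40 and 8.24 with Ac-GlcNAc, and 8.27, 7.75 and 8.21 in untreated cells. Untreated replicate 2 was the lowest array, and the differences of 0.25 with each compound had adjusted p of 0.217 with Ac-4-deoxy-GlcNAc and 0.24 with Ac-GlcNAc. Without that array the PDK3 differences were 0.09 with each compound. PDK4, a kinase raised in fasting, differed by 0.12 with Ac-4-deoxy-GlcNAc and by 0.22 (-0.01 to 0.46) with Ac-GlcNAc. Between the compounds, all 6 genes of this group differed by amounts from -0.19 to below 0, and none was called.

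EGLN3, the oxygen-sensing hydroxylase that HIF itself induces, had log2 values of 6.19, 6.43 and 6.41 with Ac-4-deoxy-GlcNAc, 6.12, 6.27 and 6.08 with Ac-GlcNAc, and 6.14, 5.95 and 6.09 in untreated cells. The Ac-4-deoxy-GlcNAc arrays lay above the untreated arrays and overlapped the Ac-GlcNAc arrays. EGLN3 differed by 0.28 (SE 0.10, adjusted p = 0.085) with Ac-4-deoxy-GlcNAc, by 0.10 (adjusted p = 0.54) with Ac-GlcNAc, and by 0.18 (-0.04 to 0.40) between the compounds. With Ac-4-deoxy-GlcNAc it was called higher after cyclic loess (adjusted p = 0.0423) and quantile normalization (0.0444), and the adjusted p ran up to 0.378 over its 20 alternatives.

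Of 8 other hypoxia-inducible genes, 0 were called. ADM, the vasodilator peptide adrenomedullin, read 7.11, 7.24 and 7.59 with Ac-4-deoxy-GlcNAc, 7.48, 7.53 and 7.67 with Ac-GlcNAc, and 7.09, 7.18 and 7.02 in untreated cells. With Ac-GlcNAc all arrays lay above the untreated ones, while Ac-4-deoxy-GlcNAc spanned both groups. The difference of 0.46 with Ac-GlcNAc (SE 0.12, adjusted p = 0.0851), 1.38-fold, was the largest positive one among the 33 genes, and that with Ac-4-deoxy-GlcNAc was 0.21 (-0.05 to 0.47), or 0.075 without Ac-4-deoxy-GlcNAc replicate 3. With array weights (adjusted p = 0.0146) and among probe sets above the median level (0.0499) ADM was called higher with Ac-GlcNAc; over 21 alternatives the adjusted p ran up to 1.

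BNIP3, a receptor for the removal of mitochondria, had log2 values of 12.00, 11.95 and 11.95 with Ac-4-deoxy-GlcNAc, 12.17, 12.17 and 12.33 with Ac-GlcNAc, and 11.85, 11.92 and 11.95 in untreated cells. The Ac-GlcNAc arrays lay above all others. BNIP3 was higher by 0.32 than in untreated cells with Ac-GlcNAc (SE 0.09, adjusted p = 0.0895) and differed by 0.06 (-0.13 to 0.25) with Ac-4-deoxy-GlcNAc; the Ac-4-deoxy-GlcNAc minus Ac-GlcNAc difference was -0.26 (-0.45 to -0.06, adjusted p = 0.18). The Ac-GlcNAc difference was called with trend and robust options (adjusted p = 0.045) and with array weights (0.0386), and over 21 alternatives its adjusted p ran up to 1. Its relative BNIP3L differed by -0.18 (-0.40 to 0.04) with Ac-4-deoxy-GlcNAc, by -0.03 with Ac-GlcNAc and by -0.15 between the compounds.

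CA12, a carbonic anhydrase of the cell surface, read 10.11, 10.17 and 10.27 with Ac-4-deoxy-GlcNAc, 10.48, 10.47 and 10.44 with Ac-GlcNAc, and 10.31, 10.20 and 10.23 in untreated cells. Arrays with Ac-GlcNAc lay above all others, as for BNIP3. The difference from untreated cells was -0.07 with Ac-4-deoxy-GlcNAc and 0.21 (0.02 to 0.40, adjusted p = 0.156) with Ac-GlcNAc, and that between the compounds was -0.28 (-0.47 to -0.09, adjusted p = 0.134), called only with array weights (adjusted p = 0.0162) among 21 alternatives, which ran up to 0.459.

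NDRG1, a gene raised by several stresses, had log2 values of 10.17, 10.36 and 10.38 with Ac-4-deoxy-GlcNAc, 10.36, 10.36 and 10.25 with Ac-GlcNAc, and 10.06, 10.02 and 10.08 in untreated cells. Here both compounds lay above untreated cells, by 0.25 (adjusted p = 0.0967) with Ac-4-deoxy-GlcNAc and by 0.27 (adjusted p = 0.115) with Ac-GlcNAc, and the compounds differed by -0.02 (-0.22 to 0.18). With Ac-GlcNAc NDRG1 was called under array weights alone among 21 alternatives (adjusted p = 0.0365, and up to 1 in the others). P4HA1 and P4HA2 are catalytic subunits of the enzyme that hydroxylates collagen. P4HA1 differed by 0.28 (0.03 to 0.54, adjusted p = 0.128; 0.18 without untreated replicate 2) with Ac-4-deoxy-GlcNAc and by 0.18 with Ac-GlcNAc, and P4HA2 by 0.04 and 0.0015. KDM3A, a histone demethylase, differed by 0.08 with Ac-4-deoxy-GlcNAc and by 0.18 (-0.05 to 0.42) with Ac-GlcNAc.

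**Figure D4:**
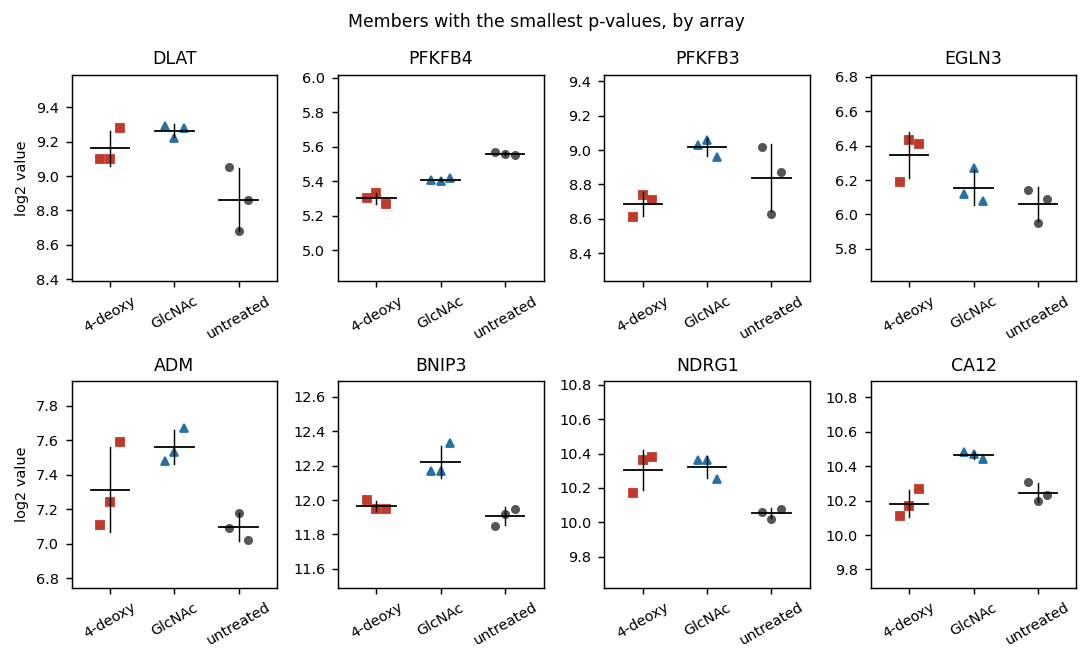
Log2 values (y axis) of 8 of the 33 genes with small p-values, by group (x axis); points are arrays, horizontal lines means and vertical lines SD, n = 3 each. ADM, BNIP3 and CA12 are highest with Ac-GlcNAc, PFKFB4 is highest in untreated cells at 5.55 to 5.57, and each panel has its own y range.

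Genes of the pathway outside the 33 were taken from a list of 80, of which 70 were measured. With Ac-4-deoxy-GlcNAc 9 were called, 4 of them higher and 5 lower, or 12.9% against the 11.0% of all probe sets, and the median difference was -0.05, as over all probe sets. With Ac-GlcNAc, 1 of 70 was higher and 0 lower (0.442% of all probe sets), and between the compounds 0 were higher and 2 lower (2.38%). By group, the Ac-4-deoxy-GlcNAc calls were 2 of 19 genes of glucose uptake and other glycolysis, 0 of 7 of mitochondrial pyruvate use, 3 of 12 of the HIF machinery and 4 of 32 other HIF targets.

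HKDC1, a hexokinase domain protein, had log2 values of 8.54, 8.28 and 8.51 with Ac-4-deoxy-GlcNAc, 8.21, 8.20 and 8.19 with Ac-GlcNAc, and 7.90, 7.65 and 7.75 in untreated cells. The groups did not overlap, and HKDC1 rose by 0.68 (SE 0.10, adjusted p = 0.00214), 1.6-fold, with Ac-4-deoxy-GlcNAc, a call kept in 21 of 21 alternatives. With Ac-GlcNAc it differed by 0.44 (adjusted p = 0.0758), and between the compounds by 0.24 (0.02 to 0.46, adjusted p = 0.303). SLC2A1, the main glucose transporter of tumour cells and a HIF target, read 11.06, 11.14 and 11.05 with Ac-4-deoxy-GlcNAc, 11.33, 11.28 and 11.49 with Ac-GlcNAc, and 11.36, 11.41 and 11.50 in untreated cells. It fell by 0.34 (SE 0.09, adjusted p = 0.0357) with Ac-4-deoxy-GlcNAc, and was called in 11 of 21 alternatives. With Ac-GlcNAc SLC2A1 differed by -0.06 (-0.26 to 0.15). The window listed for SLC2A1 held no HIF core motif.

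Transcripts of both alpha subunits were higher with Ac-4-deoxy-GlcNAc. HIF1A had log2 values of 12.66, 12.55 and 12.63 with Ac-4-deoxy-GlcNAc, 12.59, 12.60 and 12.60 with Ac-GlcNAc, and 12.39, 12.11 and 12.24 in untreated cells. It rose by 0.36 (SE 0.10, adjusted p = 0.0289), 1.29-fold, with Ac-4-deoxy-GlcNAc, and the Ac-GlcNAc difference of 0.35 (adjusted p = 0.0887) did not pass; the compounds differed by 0.02 (-0.19 to 0.22). EPAS1, which encodes HIF-2 alpha, rose by 0.37 (SE 0.09, adjusted p = 0.0261) with Ac-4-deoxy-GlcNAc, at 10.14, 10.17 and 10.20 against 9.74, 9.74 and 9.90 in untreated cells, and differed by 0.17 with Ac-GlcNAc. CREBBP, a coactivator, rose by 0.32 (adjusted p = 0.0448). HIF1A was called in 13 of 21 alternatives, EPAS1 in 14 and CREBBP in 7. HIF1A, SLC2A1 and CREBBP lie beyond the 6 largest calls and are named here with their values already known.

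The 4 other HIF targets called with Ac-4-deoxy-GlcNAc were all lower, but the 32 measured did not shift as a group. The calls were 12.5% of the 32, near the 11.0% of all probe sets. Of the 32 differences, 15 were positive (46.9%, against 41.9% of all), and their median was -0.04, against -0.05 for all. STC1, the hormone stanniocalcin 1, read 7.25, 7.55 and 7.26 with Ac-4-deoxy-GlcNAc, 7.92, 8.01 and 7.74 with Ac-GlcNAc, and 7.96, 7.96 and 7.89 in untreated cells. It fell by 0.58 (SE 0.11, adjusted p = 0.0065) with Ac-4-deoxy-GlcNAc against untreated cells, called in 21 of 21 alternatives, and was lower by 1.45-fold than with Ac-GlcNAc (log2 -0.54, adjusted p = 0.021), called in 17 of 21. With Ac-GlcNAc against untreated cells STC1 differed by -0.04 (-0.28 to 0.19).

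AK4, a mitochondrial adenylate kinase, had log2 values of 5.94, 6.10 and 5.83 with Ac-4-deoxy-GlcNAc, 6.10, 5.90 and 5.93 with Ac-GlcNAc, and 6.61, 6.72 and 6.22 in untreated cells. It fell by 0.56 (SE 0.13, adjusted p = 0.0173) with Ac-4-deoxy-GlcNAc, and differed by -0.54 (adjusted p = 0.0758) with Ac-GlcNAc. BHLHE40, a transcriptional repressor, and INSIG2, which restrains sterol synthesis, fell by 0.41 (adjusted p = 0.0344) and 0.38 (adjusted p = 0.0322) with Ac-4-deoxy-GlcNAc. AK4 was called in 15 of 20 alternatives, and BHLHE40 and INSIG2 in 12 each, of 21 and 20.

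ANGPTL4, an inhibitor of lipoprotein lipase, read 6.58, 6.54 and 6.62 with Ac-4-deoxy-GlcNAc, 7.18, 7.25 and 6.93 with Ac-GlcNAc, and 6.67, 6.22 and 6.49 in untreated cells. It rose by 0.66 (SE 0.12, adjusted p = 0.0429), 1.58-fold, with Ac-GlcNAc against untreated cells, and with Ac-4-deoxy-GlcNAc was lower, relative to Ac-GlcNAc, by 1.46-fold (log2 -0.54, adjusted p = 0.0339). The first was called in 10 of 21 alternatives and the second in 14. Relative to untreated cells, Ac-4-deoxy-GlcNAc left ANGPTL4 with a difference of 0.12 (-0.15 to 0.38). Counts over the 70 genes moved with single arrays: with Ac-4-deoxy-GlcNAc they were 15 without untreated replicate 1, 2 without untreated replicate 2, 5 without untreated replicate 3, and 4 without Ac-GlcNAc replicate 2. Leaving out replicate 1 of Ac-4-deoxy-GlcNAc gave 3 (4.98% of all probe sets), and leaving out its replicate 3 gave 2 (3.38%). With Ac-GlcNAc against untreated cells the count was 5 without untreated replicate 1, 2 without untreated replicate 3, and 0 without untreated replicate 2, any Ac-GlcNAc array, or the Ac-4-deoxy-GlcNAc arrays 2 or 3. The shares of all probe sets were 7.61%, 1.39%, and 0.0224% to 0.269% where the count was 0. Between the compounds, dropping replicate 2 of Ac-4-deoxy-GlcNAc left 1 call (2.76% of all probe sets). Dropping its replicate 1 or 3, or replicate 1 or 2 of Ac-GlcNAc, left 0 (0.79% to 1.11% of all probe sets).

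**Figure D5:**
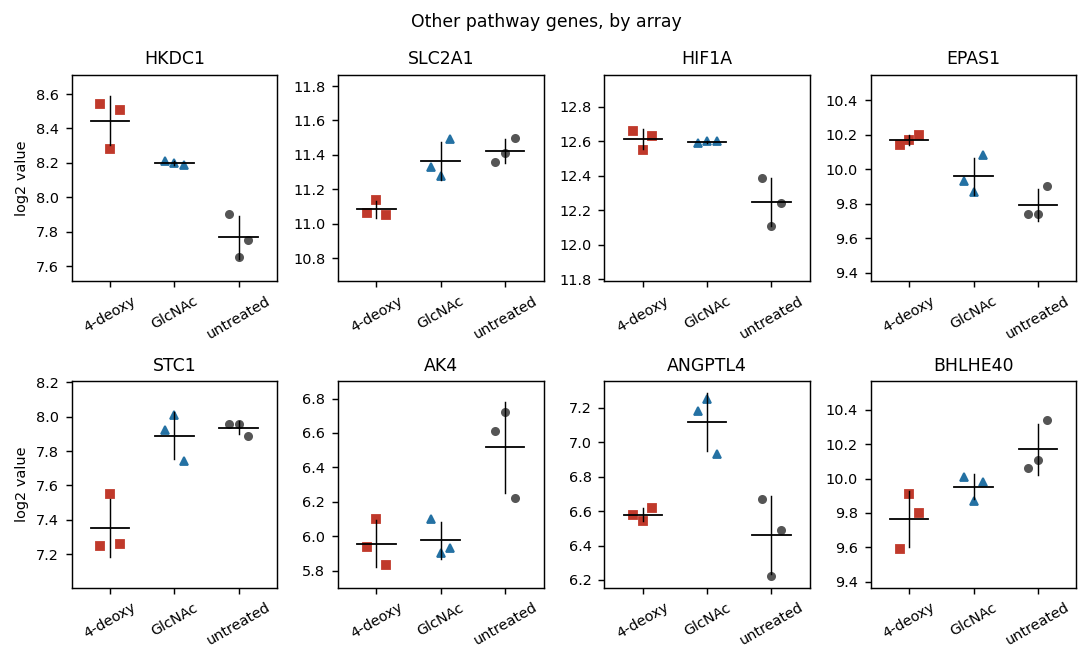
Log2 values (y axis) by group (x axis) of 8 other genes of the pathway with a call in at least 1 comparison; points are arrays, horizontal lines means and vertical lines SD, n = 3 each. STC1 and SLC2A1 are lowest with Ac-4-deoxy-GlcNAc, ANGPTL4 is highest with Ac-GlcNAc, and HIF1A is lowest in untreated cells, at 12.11 to 12.39.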

How the data were processed

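Total RNA of SKOV3 cells was measured on 9 arrays, whose titles give the group and the replicate number. The deposited log2 values, 1 per probe set, were made with RMA in Partek on build hg18, per the submitters' processing notes; versions, settings and filters are not given in the sources used here. Signal over background could not be assessed, and the number of arrays limits the precision.

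Genes were named from the platform annotation, with symbols updated by gene identifier to RefSeq. No further normalization was applied before the fit (limma 3.58.1, R 4.3.3, lmFit and eBayes): all 9 arrays, group as the only term, 6 residual degrees of freedom, two-sided tests, Benjamini-Hochberg adjustment over 17859 probe sets, called under 0.05. Intervals are 95%. The fit was tested on simulated data.

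The 41 genes, the list of 80 others and the tests were chosen with earlier results of these data known. All measured genes of the 41 are named. The rule gave values per array to those with a call or, in each role, the 2 largest differences, and named up to 6 of the others per comparison; further values per array (HK1, CA12, NDRG1) were added after values were seen. No batch is given. Alternatives were the replicate number as a block, other normalizations, filters, variance models, weights, and leaving out arrays. HIF motifs were counted on both strands.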

Additional observations from a re-analysis of the deposited data

How the results depend on the processing

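Each count was recomputed under up to 21 alternatives, and no call turned its direction. Of the 33 glycolysis and hypoxia-inducible genes, Ac-4-deoxy-GlcNAc against untreated cells gave 1 call after cyclic loess, 1 after quantile normalization and 1 above the 25th percentile of level, with 0 to 1 when single arrays were left out. The shares of all probe sets called there were, in that order, 12.7%, 12.3%, 15.3%, and 3.38% to 17.2% without single arrays. Ac-GlcNAc against untreated cells gave 1 above the 50th percentile, 1 with trend and robust options and 5 with array weights (0 to 2 without single arrays). Of all probe sets, 1.72%, 0.79% and 9.85% were called under those settings, and 0.0224% to 7.61% without single arrays. The compounds compared gave 2 with array weights (0 without any single array). There array weights called 6.65% of all probe sets, and leaving out single arrays 0.79% to 3.69%. Over the 3 groups there were 2 above the 25th percentile, 3 above the 50th, 3 with trend and robust options and 6 with array weights (0 to 1 without single arrays). Of the 70 other genes, the Ac-4-deoxy-GlcNAc count of 9 was 14 with trend and robust options, 3 with the 6 arrays alone, 2 with array SD as a covariate, 2 without both Ac-4-deoxy-GlcNAc replicate 1 and untreated replicate 2, and 2 to 15 without single arrays. The shares of all probe sets were, in that order, 12.5%, 4.58%, 3.34%, 4.09%, and 3.38% to 17.2%. The Ac-GlcNAc count of 1 was 0 after quantile normalization, median centring, with the 6 arrays alone, with the covariate and without those 2 arrays, 2 above the 50th percentile and with trend and robust options, 7 with array weights, and 0 to 5 without single arrays. As given above, array weights called 9.85% of all probe sets in this comparison. The count of 2 between the compounds was 1 after quantile normalization and with the covariate, 6 with array weights, and 0 to 3 without single arrays. With the replicate number as a block, the Ac-GlcNAc count was 3, and the block gave 0 calls among the 33 genes in every comparison. Over all probe sets the block gave 324 calls with Ac-GlcNAc, against 79 without it, and 2207 with Ac-4-deoxy-GlcNAc, against 1968. Between the compounds it gave 432, against 425. Same-numbered arrays correlated above 0.1 in 3 of 9 pairs, with 0.369 the highest, and best in 5 of 18. These values cannot decide whether same-numbered arrays were handled together. The cause of these shifts was not tested. The array SD parts the Ac-GlcNAc arrays from the untreated ones, so that covariate cannot be told apart from the treatment there. All p-values rest on the spread between 3 flasks a group, pooled over the groups and drawn by eBayes toward the spread of all probe sets.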
